A study of Mus musculus with 8 samples.

Results

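Egr1, Egr2 and Egr3 encode zinc finger transcription factors, and Nab1 and Nab2 encode the corepressors that bind them. These 5 genes, taken by name from the 23358 genes of an RNA-seq table, were followed through 8 libraries of incisor tissue. All were from 4-week-old mice on a C57BL/6 background and from the cervical loop (CL), at which the mouse incisor keeps growing. CLH is the head region that holds the dental epithelial stem cells, and CLT is the tail region with their progenies. The cKO mice carried floxed Med1 alleles (exons 8 to 10) and Cre recombinase under the Krt14 promoter, and the Ctrl mice were their littermates without Cre. Cre driven this way acts in Krt14-expressing epithelium, which includes skin and hair as well as tooth, and not in mesenchyme, muscle or blood. The 4 groups (Ctrl CLH, cKO CLH, Ctrl CLT and cKO CLT) had 2 libraries each, from 2 litters, with tissue of several mice pooled and the sexes not told apart. With groups this small, p-values measure only the spread between the libraries sequenced.

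Egr genes are immediate early genes: their transcription starts within minutes when growth factors, stretch, wounding or calcium activate the ERK and calcineurin pathways, without new protein synthesis. The factors bind GC-rich sites in promoters, and they switch on Nab2, whose protein then binds Egr factors and lowers their activity, so that the pathway restrains itself. Nab proteins act in part through the NuRD chromatin remodelling complex. Egr2, also called Krox20, is known for myelination by Schwann cells and marks progenitors of the hair shaft, Egr3 is known from muscle spindles, T cells and differentiating keratinocytes, and Egr1 is induced in most cell types.

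Values are RPKM, that is, read counts divided by the length of the gene and by the reads of the library, so levels of different genes can be set side by side. Reads on genes ranged from 22330512 to 28651106 per library. The pair of Ctrl CLT libraries stood apart from each other: 34.6% of tested genes differed by more than 1.5-fold between them, against 0.75% to 1.12% in the other groups. Med1, the check of the labels, had RPKM of 7.71 and 9.12 (Ctrl) and 7.10 and 7.03 (cKO) in CLH, and of 4.83 and 8.71 (Ctrl) and 9.15 and 8.96 (cKO) in CLT. Its level was therefore not lower in the CLT libraries labelled cKO (log2 fold change 0.42 with SE 0.30, limma adjusted p = 0.36), and a value over the whole gene does not show the deleted exons. Directions below compare the libraries carrying the cKO label with those carrying the Ctrl label.

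The labels name the samples dental epithelial cells. The epithelial keratin gene Krt14 was at 178 to 649 RPKM in all 8 libraries, but genes of other tissues were present too, among them Col3a1 of mesenchyme at 436 to 979 RPKM and Dspp of odontoblasts at 423 to 654 RPKM in the libraries other than cKO CLT. In cKO CLT, Dspp was at 0.145 and 0.174 RPKM, and Amelx, the main enamel protein gene, was at 6.57 and 3.68 RPKM against 48799 and 18601 in Ctrl CLT. In bulk tissue, fewer cells of a type and less RNA per cell cannot be told apart.

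The 250 bases before the start of Egr2, Nab1 and Nab2 are shown because Egr factors and the factors that induce Egr genes are known to act in promoters. The sequences are those of RefSeq on GRCm38.p6, 5′ to 3′ on the strand of the gene, for 3 of the 5 genes. Those of Egr1 and Egr3 are not shown, and the 3 genes were not picked by their levels. Capitals mark matches to either of 2 motifs: the CArG box, bound by serum response factor (Srf), and GCGTGGGCG, the site bound by Egr factors, which reads CGCCCACGC on the other strand. The site TGACGTCA, bound by Creb, was also searched on both strands and had no match in these windows. No marked matches overlap each other.
Egr2, chr10:67537619-67537868, plus strand: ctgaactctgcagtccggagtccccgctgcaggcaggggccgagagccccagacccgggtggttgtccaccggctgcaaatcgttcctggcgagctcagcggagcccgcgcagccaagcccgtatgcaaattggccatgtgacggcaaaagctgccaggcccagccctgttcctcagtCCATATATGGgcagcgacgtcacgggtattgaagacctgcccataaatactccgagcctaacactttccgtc
Nab1, chr1:52500449-52500698, minus strand: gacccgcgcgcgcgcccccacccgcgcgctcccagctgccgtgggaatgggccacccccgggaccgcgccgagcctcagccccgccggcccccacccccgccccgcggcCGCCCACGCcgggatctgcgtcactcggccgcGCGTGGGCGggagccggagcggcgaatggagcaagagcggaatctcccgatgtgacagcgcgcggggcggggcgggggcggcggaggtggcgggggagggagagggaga
Nab2, chr10:127666704-127666953, minus strand: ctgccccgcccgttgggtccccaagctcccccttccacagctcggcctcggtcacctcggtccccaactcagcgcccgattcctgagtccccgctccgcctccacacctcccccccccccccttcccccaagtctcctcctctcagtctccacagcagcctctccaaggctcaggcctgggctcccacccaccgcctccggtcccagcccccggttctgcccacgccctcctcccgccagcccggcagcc
The Egr2 window holds 1 CArG box, which begins 72 bases before the start of the gene. The Nab1 window holds 2 matches to GCGTGGGCG, which begin 141 and 109 bases before the start. Of 32851 RefSeq promoter windows of the same 250 bases, 1.47% hold a CArG box, 0.536% hold GCGTGGGCG and 1.55% hold TGACGTCA. A match describes the letters alone and does not show that a factor binds there.

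Among the Egr factors, Egr1 (mm10, chromosome 18, 34861207 to 34864956) was the most abundant in CLH. Its RPKM was 7.71 and 9.39 (Ctrl) and 6.54 and 7.60 (cKO) in CLH, and 12.9 and 5.26 (Ctrl) and 33.7 and 31.9 (cKO) in CLT. Both cKO CLT libraries lay above all the others, and the Ctrl CLT libraries lay on either side of the CLH libraries. Egr2 (chromosome 10, 67537869 to 67542188) was at 0.647 and 0.690 RPKM (Ctrl) and 0.689 and 1.14 (cKO) in CLH, and 8.23 and 0.710 (Ctrl) and 30.1 and 27.8 (cKO) in CLT. Again both cKO CLT libraries were highest, and of the rest Ctrl CLT 1 alone exceeded 1.14 RPKM. Egr3 (chromosome 14, 70077445 to 70080157) was at 1.11 and 1.16 RPKM (Ctrl) and 1.07 and 1.51 (cKO) in CLH, and 8.16 and 0.186 (Ctrl) and 32.7 and 38.1 (cKO) in CLT. The value of 0.186 in Ctrl CLT 2 rests on 7 reads, the fewest of any of the 5 genes. Egr4, the remaining member of the Egr factors, had 3 reads in Ctrl CLH 1 (0.0415 RPKM) and none in the other libraries, where 0 reads allow up to 3.

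Of the corepressors, Nab1 (chromosome 1, 52455849 to 52500448) was at 10.3 and 10.97 RPKM (Ctrl) and 11.3 and 9.63 (cKO) in CLH, and 12.5 and 16.5 (Ctrl) and 9.82 and 10.001 (cKO) in CLT. Its highest 2 values were those of Ctrl CLT, the group in which the Egr genes were most uneven. Nab2 (chromosome 10, 127660918 to 127666703) was at 18.6 and 19.3 RPKM (Ctrl) and 18.8 and 19.7 (cKO) in CLH, and 15.9 and 13.9 (Ctrl) and 32.7 and 33.1 (cKO) in CLT. Nab2 thus had its highest level in the same libraries as the Egr factors, with no overlap with any other group. The Nab2 value is uncertain to the extent that its end shares 70 bases with the neighbouring Stat6 and that 1646 bases of an antisense gene, Gm16229, lie over it in GENCODE M21, since the strand setting of the counts was not given in the sources used here. Stat6 was at 18.8 to 21.02 RPKM in CLH, 23.9 and 23.7 in the Ctrl CLT pair, and 29.9 and 33.0 in the cKO CLT pair.

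**Figure D1:**
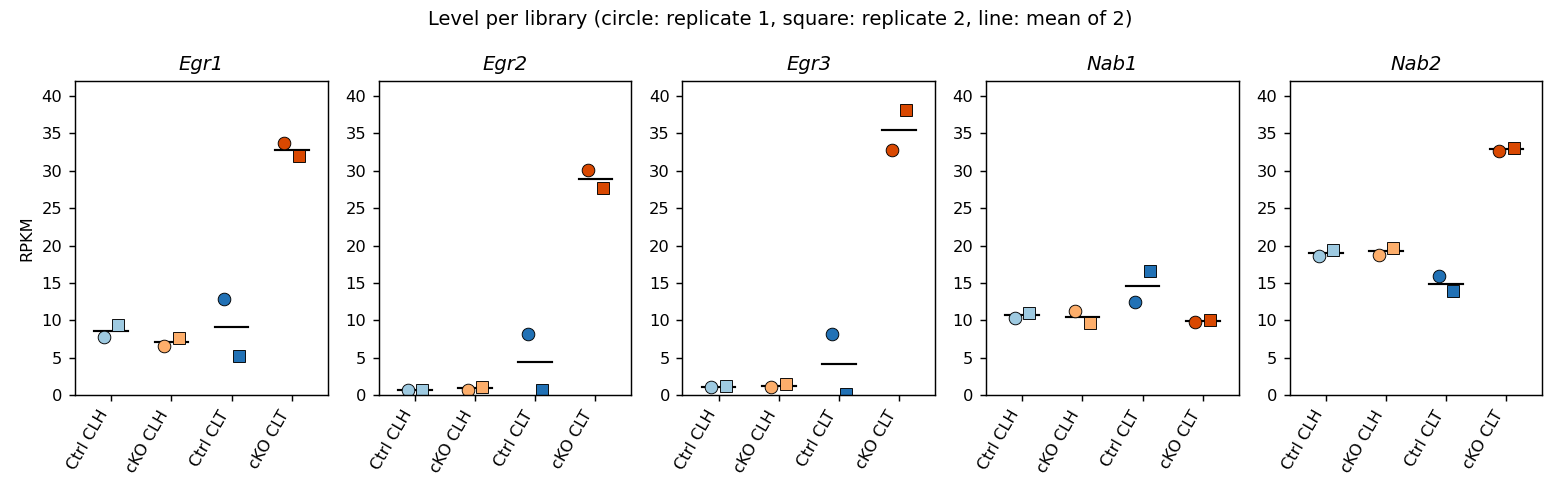
RPKM (linear axis) of each Egr and Nab gene in each of the 8 libraries. Circles are replicate 1, squares replicate 2 and lines the mean of 2. Egr1, Egr2, Egr3 and Nab2 were highest in both cKO CLT libraries, and the Ctrl CLT pair was far apart for the Egr genes.

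Ordered by mean RPKM over the 2 libraries, Egr1 stood at 32.8 ± 1.28 (SD) in cKO CLT, 9.09 ± 5.41 in Ctrl CLT, and then 8.55 ± 1.19 (Ctrl) and 7.07 ± 0.750 (cKO) in CLH. Ctrl CLT and Ctrl CLH overlapped in this order, while Ctrl CLH lay above cKO CLH without overlap. Egr2 stood at 28.9 ± 1.65, 4.47 ± 5.32, 0.915 ± 0.319 and 0.668 ± 0.0307 in cKO CLT, Ctrl CLT, cKO CLH and Ctrl CLH, and Egr3 at 35.4 ± 3.78, 4.17 ± 5.64, 1.29 ± 0.310 and 1.13 ± 0.0341 in the same order. For both genes, neighbours below cKO CLT overlapped. Nab1 stood at 14.5 ± 2.85 in Ctrl CLT, then at 10.7 ± 0.444 (Ctrl) and 10.4 ± 1.15 (cKO) in CLH and at 9.91 ± 0.127 in cKO CLT, and the last 3 overlapped as neighbours. Nab2 stood at 32.9 ± 0.282 in cKO CLT, 19.2 ± 0.623 in cKO CLH, 19.0 ± 0.549 in Ctrl CLH and 14.9 ± 1.43 in Ctrl CLT, with overlap between the CLH groups only.

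The makeup of the family differed as well. Egr1 made up 74.2% to 83.6% of the summed RPKM of the 3 Egr factors in the CLH libraries. In cKO CLT the 3 factors were nearly even, with Egr1 at 34.9% and 32.7%, Egr2 at 31.2% and 28.4%, and Egr3 at 33.9% and 39.0%. In the Ctrl CLT pair, Egr1 made up 44.1% in replicate 1 and 85.5% in replicate 2. The ratio of summed Egr RPKM to summed Nab RPKM was 0.276 to 0.371 in CLH, 1.03 and 0.202 in Ctrl CLT, and 2.27 in each cKO CLT library. Nab2 made up 62.5% to 67.1% of the Nab sum in CLH, and in CLT 56.0% and 45.7% for Ctrl and 76.9% and 76.8% for cKO. These shares are descriptions of single libraries and were not tested.

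**Figure D2:**
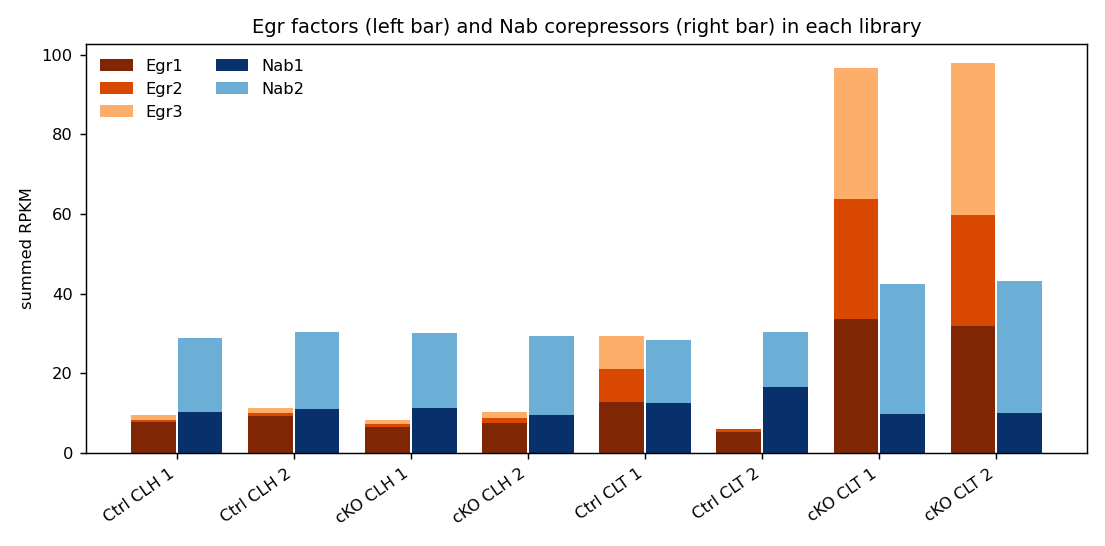
Summed RPKM of the Egr factors (left bar, stacked) and of the Nab corepressors (right bar, stacked) in each library. The Egr bar was below the Nab bar in CLH and Ctrl CLT 2, level with it in Ctrl CLT 1, and 2.27 times the Nab bar in both cKO CLT libraries.

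The first comparison set libraries labelled cKO against libraries labelled Ctrl in the progeny tissue, CLT. Mean RPKM in cKO was 3.61 times that in Ctrl for Egr1, 6.47 times for Egr2, 8.49 times for Egr3, 2.21 times for Nab2 and 0.682 times for Nab1. In 4 of the 5 genes both cKO libraries lay above both Ctrl libraries, as did 37.2% of the 14130 genes tested, and Nab1 lay below without overlap. None of the 5 passed an adjusted p of 0.05 in limma on log2(RPKM + 1), a test that called 1.74% of all genes (10 higher and 236 lower). The log2 fold change was 1.86 for Egr1 (SE 0.43, adjusted p = 0.082), 2.91 for Egr2 (SE 0.87, adjusted p = 0.11) and 3.46 for Egr3 (SE 1.05, adjusted p = 0.11). It was 1.09 for Nab2 (SE 0.15, adjusted p = 0.060) and -0.50 for Nab1 (SE 0.19, adjusted p = 0.16). At an unadjusted p under 0.05 stood 4 of the 5, all but Nab1, and 36.2% of all genes. The median log2 fold change of all genes was -0.0086, and 98.9% of them had a lower value than Egr3, 98.2% lower than Egr2 and 95.4% lower than Egr1.

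These calls turned on the Ctrl CLT libraries, which differed 2.45-fold in Egr1, 11.6-fold in Egr2 and 43.9-fold in Egr3, but 1.32-fold in Nab1 and 1.15-fold in Nab2. Without Ctrl CLT 1, all 5 genes were called, with log2 fold changes of 2.43 for Egr1, 4.13 for Egr2, 4.94 for Egr3, -0.69 for Nab1 and 1.19 for Nab2, and so were 9831 of all genes. Without Ctrl CLT 2, the log2 fold changes were 1.28, 1.70, 1.99, -0.31 and 1.002 in the same order, and 4 of the 5 (not Nab1) and 7379 of all genes were called. In both cases the Ctrl library left over was assumed to vary like the cKO pair. The direction was therefore the same against either Ctrl library for each gene, whereas the size for Egr2 and Egr3 depended on which was used. With 2 libraries on each side, the smallest p that an exact permutation test allows is 0.333.

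In the stem cell tissue, CLH, none of the 5 genes was called, and limma called 0% of all genes there, with 1023 genes but none of the 5 at an unadjusted p under 0.05. The log2 fold change of cKO against Ctrl was -0.24 for Egr1 (SE 0.13, adjusted p = 0.71), 0.19 for Egr2 (SE 0.13, adjusted p = 0.73) and 0.09 for Egr3 (SE 0.11, adjusted p = 0.83). The corepressors were at -0.03 for Nab1 (SE 0.10) and 0.02 for Nab2 (SE 0.06), each with an adjusted p of 0.95. Egr1 alone had no overlap between the groups, with both cKO libraries lower, a separation seen for 38.7% of all genes in either direction. The gap between the cKO effects of the regions, CLT minus CLH, fitted as an interaction over all 8 libraries, was 2.10 on the log2 scale for Egr1 (SE 0.50, adjusted p = 0.038, limma, which became 0.062 with a replicate block and 0.051 with no filter on low values) and 1.07 for Nab2 (SE 0.14, adjusted p = 0.0092, limma). Egr2 at 2.72 (SE 0.998, adjusted p = 0.10) and Egr3 at 3.37 (SE 1.2, adjusted p = 0.096) had larger estimates and wider errors and did not pass, nor did Nab1 at -0.47 (SE 0.22, adjusted p = 0.17). The interaction test called 17.6% of all genes, against 2 of these 5. It took 1 spread per gene for all 4 groups, the uneven Ctrl CLT pair included. It called 5 of the 5 without Ctrl CLT 1, 4 without Ctrl CLT 2, and 0 without any single one of the other libraries.

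Between regions, the cKO libraries gave the tightest values. In cKO mice, 4 of the 5 genes were higher in CLT than in CLH past the threshold, in a comparison that called 74% of all genes. Mean RPKM in cKO CLT was 31.6 times that in cKO CLH for Egr2 (log2 fold change 3.97 with SE 0.13, limma adjusted p = 2.6e-08), 27.5 times for Egr3 (log2 fold change 3.996 with SE 0.13, limma adjusted p = 2.2e-08) and 4.64 times for Egr1 (log2 fold change 2.07 with SE 0.10, limma adjusted p = 2.7e-07). Nab2 was 1.71 times as high (log2 fold change 0.75 with SE 0.08, limma adjusted p = 5.7e-05), and Nab1 was 0.949 times as high, with overlap between the groups and a sign that turned under both other scalings (log2 fold change -0.06 with SE 0.10, limma adjusted p = 0.59). The 4 genes had both cKO CLT libraries above both cKO CLH libraries, as did 34.5% of all genes. In Ctrl mice, none of the 5 passed, in a comparison that called 0.0142% of all genes and had 1858 genes, none of them among the 5, at an unadjusted p under 0.05. The log2 fold change of CLT against CLH in Ctrl was -0.03 for Egr1 (SE 0.44), 1.25 for Egr2 (SE 0.88), 0.63 for Egr3 (SE 1.06), 0.40 for Nab1 (SE 0.19) and -0.33 for Nab2 (SE 0.14). With Ctrl CLT 1 left out, Egr3 was lower in CLT by a log2 fold change of -0.85, and with Ctrl CLT 2 left out it was higher by 2.10, so its direction between regions in Ctrl mice was set by which of these libraries was kept. Egr1 changed sign in the same way, at -0.60 and 0.55, and also under both other scalings, and Egr2 moved from 0.04 to 2.47 without changing sign. The region comparisons share their libraries with the genotype comparisons and are not separate evidence.

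**Figure D3:**
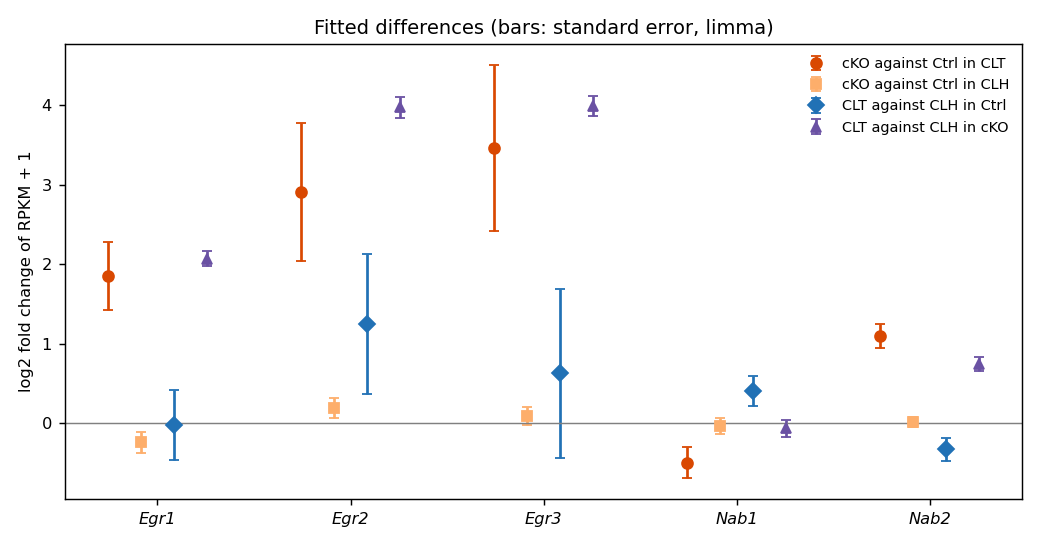
Log2 fold change of RPKM + 1 (points) with its limma standard error (bars) for each gene in 4 comparisons of 2 against 2 libraries. Bars are short for CLT against CLH in cKO and longest for Egr2 and Egr3 wherever the Ctrl CLT libraries enter.

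Genes that share the regulation of the Egr family were then counted. Of 18 other immediate early genes, 15 were tested, and none was called in CLT between cKO and Ctrl by limma, against 1.74% of all genes, and 7 stood at an unadjusted p under 0.05, against 36.2% of all genes: 13 had a higher mean in cKO and 2 a lower one, with a median log2 fold change of 0.66. The AP-1 gene Junb had the highest value of this list, with RPKM in CLT of 14.4 and 3.90 for Ctrl and 24.0 and 33.7 for cKO (log2 fold change 1.76 with SE 0.62, limma adjusted p = 0.13). The nuclear receptor gene Nr4a2 had the lowest, with RPKM in CLT of 1.14 and 7.90 for Ctrl and 0.927 and 0.548 for cKO (log2 fold change -1.34 with SE 0.75, limma adjusted p = 0.26). In CLH, where 0% of all genes were called, the list had 5 genes higher and 10 lower, none of them called. Its median there was -0.08. In cKO CLT against cKO CLH, 12 of the 15 were called higher and 2 lower, in the comparison that called 74% of all genes. The interaction test, which called 17.6% of all genes, called 1 of the 15, the antiproliferative gene Btg2, with RPKM in CLT of 20.9 and 10.5 for Ctrl and 42.6 and 39.6 for cKO (log2 difference 1.56 with SE 0.40, limma adjusted p = 0.045).

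Of 10 upstream regulators (Srf, its ternary complex partners, the myocardin-related factors and the NFAT factors), none was called in CLT (2 at an unadjusted p under 0.05 in limma; of all genes 1.74% were called and 36.2% stood under 0.05), with 7 higher, 3 lower and a median of 0.18. Mkl1, a coactivator of Srf, was highest, with RPKM in CLT of 7.16 and 5.18 for Ctrl and 8.56 and 10.96 for cKO (log2 fold change 0.59 with SE 0.24, limma adjusted p = 0.16). Nfatc4, a calcium-responsive NFAT factor, was lowest, with RPKM in CLT of 12.8 and 33.0 for Ctrl and 3.14 and 3.49 for cKO (log2 fold change -2.33 with SE 0.48, limma adjusted p = 0.076), and it was the 1 gene of the list that the interaction test called (-2.41, SE 0.54, adjusted p = 0.034). Of 8 feedback genes of the ERK pathway, none was called in CLT (4 at an unadjusted p under 0.05 in limma, beside the same shares of all genes), with 6 higher, 2 lower and a median of 0.57. Dusp4, a phosphatase that inactivates ERK, had RPKM of 1.49 and 0.759 in CLT of Ctrl against 5.72 and 5.74 in CLT of cKO (log2 fold change 1.68 with SE 0.24, limma adjusted p = 0.061). Spred1, an inhibitor of Ras signalling, had the lowest value of the list (log2 fold change -0.33 with SE 0.39, limma adjusted p = 0.57). The interaction test called Dusp4 and its fellow inhibitor Spred2, both higher, and 17.6% of all genes. In CLH, where 0% of all genes were called, no gene of either list was called, and their medians were 0.05 and -0.01.

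Downstream, the 13 genes of the NuRD complex had none called in CLT (4 at an unadjusted p under 0.05 in limma; of all genes 1.74% were called and 36.2% stood under 0.05), with 9 higher, 4 lower and a median of 0.12. Gatad2b, a scaffold subunit, was at 6.87 and 6.39 RPKM in CLT of Ctrl against 11.8 and 12.4 in CLT of cKO (log2 fold change 0.78 with SE 0.15, limma adjusted p = 0.073). Chd3, one of the helicase subunits, was at 25.4 and 30.0 RPKM in CLT of Ctrl against 13.6 and 14.2 in CLT of cKO (log2 fold change -0.94 with SE 0.16, limma adjusted p = 0.064). The interaction test called Chd3 lower and no other NuRD gene. Of 15 textbook targets of Egr factors, 14 were tested, with 1 called and 7 at an unadjusted p under 0.05 in limma, beside the same shares of all genes, 6 higher, 8 lower and a median of -0.0082. The 1 gene called in CLT was Tgfb1, a growth factor gene described as activated by Egr1, and it fell from 39.7 and 48.9 RPKM in Ctrl CLT to 7.44 and 7.49 in cKO CLT (log2 fold change -2.41 with SE 0.17, limma adjusted p = 0.030). At the other end stood F3, the tissue factor gene, named here after its values were seen, with RPKM in CLT of 7.58 and 3.71 for Ctrl and 26.3 and 22.7 for cKO (log2 fold change 1.9997 with SE 0.34, limma adjusted p = 0.065). The interaction test, with 17.6% of all genes called, called F3 and Trp53 higher and Tgfb1 and Id3 lower. Neither the NuRD genes nor the targets had a gene called in CLH, where 0% of all genes were called. At an unadjusted p under 0.05 in limma stood 4 of the 13 NuRD genes and 2 of the 14 targets tested in CLH. For all genes in CLH that share was 7.24%.

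**Figure D4:**
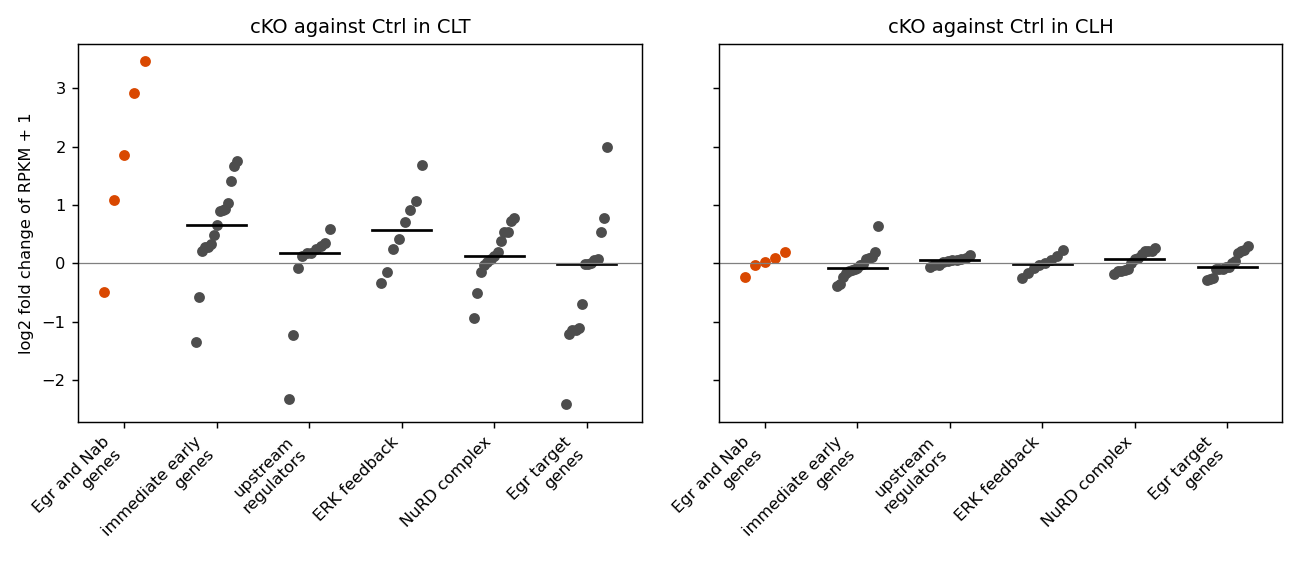
Log2 fold change of RPKM + 1 of cKO against Ctrl in CLT (left) and CLH (right), 1 point a gene, for the 5 Egr and Nab genes and 5 lists chosen by function; horizontal lines are list medians. In CLT the immediate early and ERK feedback lists had medians of 0.66 and 0.57 and the Egr target list spread on both sides of 0. In CLH the list medians lay between -0.08 and 0.08, and single genes ran from Nr4a1 at -0.39 to Junb at 0.64.

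Markers of several tissues moved with the Egr factors across the CLT libraries. Summed RPKM of 10 hair follicle markers was 6.68 to 9.17 in CLH, 4015 and 12.6 in Ctrl CLT 1 and 2, and 11790 and 12885 in cKO CLT. The summed RPKM of the epidermal differentiation markers (9 of 10 in the table) was 13.2 to 30.1 in CLH, 508 and 11.7 in the Ctrl CLT pair, and 1460 and 1469 in the cKO CLT pair. For 10 skeletal muscle markers the sums were 37.98 to 44.4, then 874 and 66.4, then 2332 and 2555. For 6 melanocyte markers they were 4.26 to 4.58, then 134 and 10.3, then 414 in both cKO libraries. Ctrl CLT 1, the Ctrl library with the higher Egr levels, thus also held more RNA of all 4 marker groups than Ctrl CLT 2. All 35 markers tested in these lists had both cKO CLT libraries above both Ctrl CLT libraries, as did 37.2% of all genes. None of them was called in limma, against 1.74% of all genes. At an unadjusted p under 0.05 in limma stood 3 of 10 muscle, 1 of 9 epidermal, 0 of 10 hair and 4 of 6 melanocyte markers. For all genes that share was 36.2%. The part of hair, epidermis, muscle or pigment cells in the Egr and Nab levels was not tested. The study gave levels of Egr1 and Egr3 in these CLT samples beside epidermal transcription factors. It reported Egr3 as upregulated in cKO CLT by RNA-seq with a t-test, which differs from the test used here. It also cited RT-qPCR of upregulated factors in 2 litters. The direction of Egr1 and Egr3 in these RNA-seq libraries is therefore not independent evidence. From chromatin data, which were not used here, the study also reported enhancers around Egr3. It further reported Egr1 binding motifs as enriched in super-enhancers of cKO CLT.

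The defining genes gave the same picture. The hair keratin Krt71 was at 1229 and 1.30 RPKM in CLT of Ctrl against 3726 and 4189 in CLT of cKO, and Krt31 at 114 and 0.143 against 322 and 356. The epidermal keratin Krt10 was at 138 and 2.84 RPKM in CLT of Ctrl against 409 and 419 in CLT of cKO, and Krt1 at 19.9 and 0.292 against 66.6 and 63.2. Muscle actin, Acta1, was at 190 and 10.3 against 551 and 659 RPKM, and the creatine kinase gene Ckm at 75.0 and 5.18 against 200 and 240. The pigment enzyme genes Dct and Tyrp1 were at 46.3 and 7.39 and at 16.2 and 0.0415 RPKM in Ctrl CLT, against 124 and 122 and 70.1 and 64.4 in cKO CLT. In all 8 of these genes Ctrl CLT 1 lay between Ctrl CLT 2 and the cKO libraries.

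Schwann cells, in which Egr2 drives myelination, were examined by 10 markers, of which 9 were tested. In CLT 7 were higher in cKO and 2 lower, the median log2 fold change being 0.61, with summed RPKM of 116 and 118 in Ctrl against 173 and 169 in cKO. Sox10, a factor of Schwann cells and of melanocytes, was at 1.59 and 0.152 RPKM in CLT of Ctrl against 4.79 and 5.49 in CLT of cKO (log2 fold change 1.83 with SE 0.45, limma adjusted p = 0.087). The part of Schwann cells in the Egr2 level was not tested.

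Markers of the cells that make enamel, dentin and bone went the other way. All 7 ameloblast markers were called lower in cKO CLT, where 1.74% of all genes were called in either direction (median log2 fold change -9.46, summed RPKM 84584 and 37392 in Ctrl against 19.7 and 15.8), from Mmp20 at -6.54 to Amelx at -12.31. Of 8 odontoblast and osteoblast markers, 5 were called lower (median -4.62, summed RPKM 2185 and 2569 against 379 and 474), from Col1a1 at -1.50 to Dspp at -9.00. Of the dental epithelium markers, Krt14 was at 543 and 275 RPKM in Ctrl against 558 and 649 in cKO. No leukocyte, endothelial or mesenchyme marker was called in CLT, with 5, 4 and 6 of them at an unadjusted p under 0.05 in limma, beside 36.2% of all genes, and medians of -0.54, -0.18 and -1.26. Leukocyte sums were 147 and 199 RPKM in CLT of Ctrl against 116 and 113 in CLT of cKO, endothelial sums 103 and 145 against 90.0 and 90.9, and mesenchyme sums 1156 and 1986 against 1267 and 1361. Of the 10 leukocyte markers, 8 were lower in cKO CLT, Cd4 among them, and 2 were higher, the T cell genes Cd3g and Cd3e. Cd3g was at 1.80 and 0.0735 RPKM in Ctrl CLT against 4.92 and 4.01 in cKO CLT. Cd3e was at 0.357 and 0.498 against 1.44 and 1.53. The part of T cells in the Egr levels was not tested. No gene of any list, tooth and other tissues included, was called between cKO and Ctrl in CLH, where 0% of all genes were called.

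**Figure D5:**
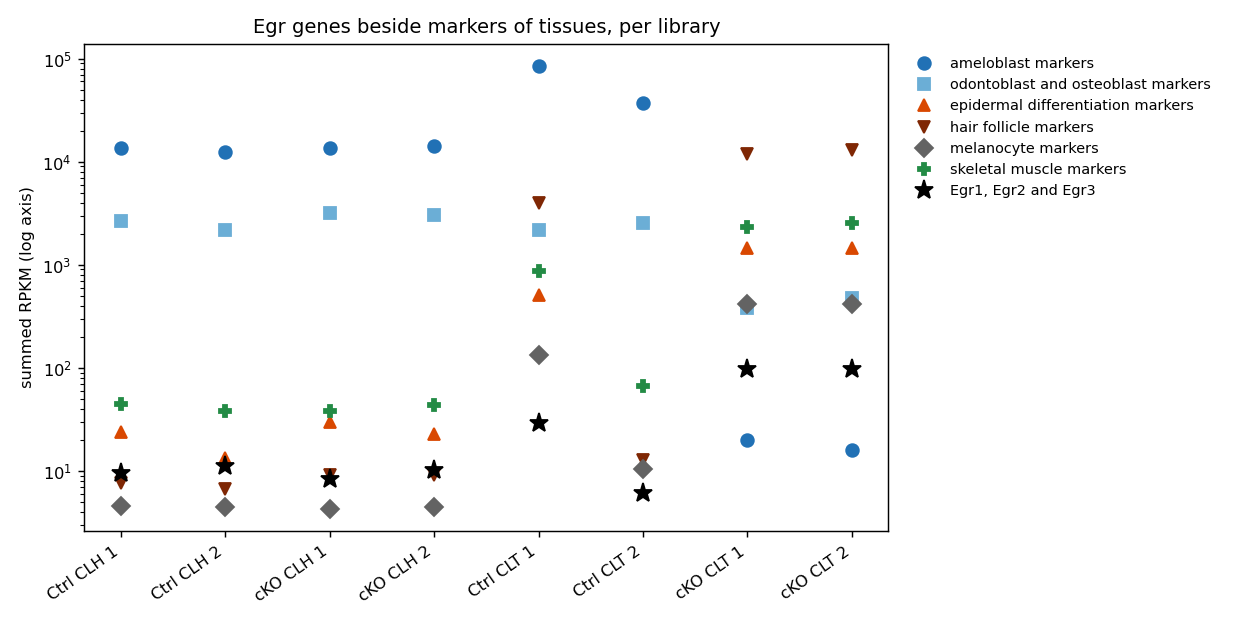
Summed RPKM (log axis) of Egr1, Egr2 and Egr3 (stars) and of 6 lists of tissue markers in each library. The Egr sum was 96.6 and 97.8 in cKO CLT, 29.3 in Ctrl CLT 1 and 6.16 in Ctrl CLT 2; hair, epidermal, muscle and melanocyte sums ran in the same order over these libraries, and ameloblast sums did not.

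Across the 8 libraries, which share 4 groups and are dominated by the pair of cKO CLT libraries, the log2(RPKM + 1) values of Egr2 and Egr3 had a Pearson r of 0.988, Egr1 and Egr3 of 0.983, and Egr1 and Egr2 of 0.963. For Nab2 the r was 0.896 with Egr1, 0.787 with Egr2 and 0.847 with Egr3, and for Nab1 it was -0.502, -0.335 and -0.463. These coefficients are descriptions of 8 points and carry no p. The 5 genes most like Egr1 were Alcam, which encodes a cell adhesion molecule, ORF63, the tyrosine phosphatase gene Ptpre, BC066135 and Lmbr1l, with r of 0.996 to 0.998. Alcam, the first of them, was at 3.64 to 5.31 RPKM in CLH, 8.04 and 2.59 in the Ctrl CLT pair, and 25.0 and 22.2 in the cKO CLT pair. The 5 most like Egr2 were Gdpd3, the cornified envelope gene Lce1a1, the cofilin kinase gene Limk2, Serpina3h and Tmem79, all with r of 0.999. Gdpd3, a gene of lipid metabolism, was at 1.72 to 2.47 RPKM in CLH, 10.8 and 2.11 in the Ctrl CLT pair, and 29.7 and 29.0 in the cKO CLT pair. The 5 most like Egr3 were Tagln3, the epidermal transcription factor gene Grhl3, Susd2, the keratin gene Krt80 and Mycl1, with r of 0.998 to 0.999. Grhl3 was at 1.15 to 1.44 RPKM in CLH, 6.14 and 0.487 in the Ctrl CLT pair, and 19.7 and 19.8 in the cKO CLT pair. Many genes lay closer to each Egr factor than its relatives did: Egr3 ranked 684th in likeness to Egr2 and 186th to Egr1, and Egr2 ranked 302nd to Egr3.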

How the data were processed

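RNA-seq of 2 libraries in each of 4 groups (Ctrl and cKO, CLH and CLT) was used, grouped by the sample labels. The authors prepared TruSeq libraries and sequenced read pairs of 50 bases. Per the labels and the study's methods, reads went through FastQC 0.72, Trim Galore 0.4.3.1, RNA STAR 2.6.0b-1 on mm10 and featureCounts 1.6.3, with DESeq2 2.11.40.2 named for testing. The deposited values are RPKM for 23358 genes with a gene length each. The annotation, strand setting and the total behind the RPKM are not given in the sources used here. Of the gene names, 26 were on more than 1 row (69 rows), and these rows were left out. Of the columns with values of single samples, 0 went unused.

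RPKM times length was a whole multiple of 1 step per library for 100% of values checked (tolerance 0.05 reads), which gave totals of about 26591600 to 34420200 reads, 82.2% to 85.6% of them on genes. Floors of 3 reads cover counting error only. Values were tested as log2(RPKM + 1), which understates changes of low genes, with limma 3.58.1 in R 4.3.3 (lmFit, eBayes with trend, two-sided), over the 14130 genes at 1 RPKM or more in at least 2 of 8 libraries, with Benjamini-Hochberg adjustment over all of them and a threshold of 0.05. All 5 Egr and Nab genes passed this filter. Each comparison used its own 4 libraries and the interaction all 8, with 1 spread per gene for all 4 groups. Scripts were tested on simulated data.

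The 5 genes and the gene lists were chosen with earlier results of these data known. Of each list, the text names members past the threshold between cKO and Ctrl if at most 4, otherwise the highest and lowest in CLT, the first 2 genes of tissue lists, and the 5 genes with the highest Pearson r to each Egr gene. Alternatives were pseudocounts of 0.1 and 0.5, no filter, a filter on the mean, median-of-ratios scaling, quantile normalization, voom on the recovered reads, a replicate block, all 8 libraries in 1 fit and each library left out. Promoter windows came from RefSeq (GRCm38.p6) and gene overlaps from GENCODE M21. Each figure was drawn with matplotlib 3.10.9. Values of some individual marker genes are left out of the text.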

Additional observations from a re-analysis of the deposited data

Results flagged for a closer look

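The effect of cKO on Egr1 differed between CLT and CLH by a test of the difference itself: the interaction was 2.097 on the log2 scale (adjusted p = 0.038, limma), with cKO higher than Ctrl by 1.86 in CLT and lower by a log2 fold change of -0.24 in CLH. The same test gave 1.075 for Nab2 (adjusted p = 0.0092, limma), with 1.09 in CLT and 0.02 in CLH. In both genes the cKO CLT libraries lay above the libraries of every other group, and the interaction called 17.6% of all genes tested. It took 1 spread per gene for all 4 groups. Yet 34.6% of tested genes differed by more than 1.5-fold within Ctrl CLT, against 0.75% to 1.12% in the other groups. Fitted in CLT alone, the adjusted p of cKO against Ctrl was 0.082 for Egr1 and 0.060 for Nab2 (limma). With a replicate block the adjusted p of the interaction was 0.062 for Egr1 and 0.027 for Nab2 (limma). With no filter on low values it was 0.051 and 0.011, at the same differences, so the Egr1 call was lost under both. Leaving out Ctrl CLT 1 gave 2.67 for Egr1 and 1.17 for Nab2, and leaving out Ctrl CLT 2 gave 1.52 and 0.98, each past the threshold. Neither gene passed with any single one of the other 6 libraries left out.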

How the results depend on the processing

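Of the 5 genes, none was called between cKO and Ctrl in CLT, but 3 were with a replicate block, 5 with all 8 libraries in 1 fit, and 0 to 5 with 1 library left out. The replicate numbers are not said by the labels to mark a litter, and same-numbered deviations had a correlation of -0.194 between the CLT groups and 0.0652 between the CLH groups, so the block is an alternative only. It raised the calls over all genes in CLT from 246 to 1797. Those calls also moved to 6184 with all 8 libraries in 1 fit, 3 with no filter on low values, 0 with voom on recovered reads, and 11 to 9831 with 1 library left out. In the interaction, which called 2 of the 5 (Egr1 and Nab2), no filter and the replicate block each called 1 (Nab2, with Egr1 lost), and leaving out 1 library called 0 to 5. All-gene calls of the interaction moved from 2489 to 1443 with the block and to 197 to 8920 with 1 library left out. Between regions in Ctrl, 0 to 2 of the 5 were called with 1 library left out, and all-gene calls moved from 2 to 0 with no filter or voom, 1 with median-of-ratios scaling, 5 with the block, 850 with all 8 libraries in 1 fit, and 0 to 7552. In CLH 0, and between regions in cKO 4, were called under every alternative run. A library left out leaves 1 in its group, assumed to vary like the others.

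Of 340 single-gene alternatives, 289 kept their direction and side of the threshold, 14 lost and 24 gained a call, and 13 changed sign. With 1 library left out, log2 fold changes of cKO against Ctrl in CLH that changed sign ran from -0.0446 to 0.233 for Egr3, -0.133 to 0.073 for Nab1 (0.0091 without Ctrl CLH 2) and -0.0121 to 0.0507 for Nab2 (-0.0088 without Ctrl CLH 1). Between regions in Ctrl, Egr1 ran from -0.602 to 0.549 (0.101 without Ctrl CLH 2) and was at 0.128 with median-of-ratios scaling and 0.0769 with quantile normalization, and Egr3 ran from -0.846 without Ctrl CLT 1 to 2.103 without Ctrl CLT 2. Between regions in cKO, Nab1 ran from -0.168 to 0.0379 and was at 0.132 and 0.0288 under those scalings. The median log2 fold change of all genes between regions was -0.13 in Ctrl and -0.18 in cKO. The causes were not tested.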
